A study of Homo sapiens with 30 samples.

Results

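MYC and the proteins that share or compete for its partner MAX were followed through 10 genes: MYC, MYCN, MAX, MXD1, MXD3, MXD4, MXI1, MNT, MLX and MGA. They were chosen by name, as the entries of the deposited tables whose gene symbol equals a listed member, and where a symbol has several transcript entries the entry with the highest mean count was used. All 10 were found among 25680 symbols and all 10 passed the low-count filter that left 16409 genes for testing. MYCN passed it through OPM2 alone.

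MYC binds DNA as a pair with MAX at the E-box CACGTG and activates genes for growth, ribosomes and nucleotide supply. MXD1, MXD3, MXD4, MXI1, MNT and MGA also pair with MAX at such sites, where they recruit corepressors, so the balance between MYC and these partners sets how E-box genes are read. MLX resembles MAX and pairs with some of the repressors and with the glucose-sensing factors MLXIP (MondoA) and MLXIPL (ChREBP). In multiple myeloma, a cancer of plasma cells, MYC is often activated by rearrangement next to strong enhancers, and the cells depend on it.

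The RNA came from 2 established human multiple myeloma lines, OPM2 and H929. The study asked what follows from the loss of BRD9, a bromodomain protein of the non-canonical BAF chromatin remodeller, after addition of the degrader dBRD9-A. The groups were OPM2 with 100 nM dBRD9-A for 24 h, OPM2 with the solvent DMSO, H929 with the same dose and time of dBRD9-A, and H929 with DMSO, with 3 libraries each. The other 18 of 30 samples listed were not analysed here. The labels do not tell whether the 3 libraries of a group stem from different cultures, so the spread behind each p-value may be technical.

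Total counts, summed over the entry used for each symbol, were 24524190 in OPM2 dBRD9-A replicate 2 and 42895379 to 76600957 in the other 11 libraries. Replicate 2 stood apart from its group mates: the SD of its log2 deviations from them was 0.96 over 11100 genes, and these deviations ran against transcript GC content with a Spearman coefficient of -0.68 across genes. In the 9 libraries of the other groups the SD was 0.18 to 0.28. Results that rest on replicate 2 are therefore given with and without it. The 9 plasma cell markers examined had at least 494 counts in every library, and their summed level was 6516 to 7590 CPM (counts scaled to a fixed library total) in OPM2 with dBRD9-A, 11770 to 14102 CPM in OPM2 with DMSO, 9189 to 10410 CPM in treated H929 and 15586 to 16884 CPM in H929 with DMSO. IGJ, the joining chain of secreted antibodies, made up much of this sum, with a mean of 2436 CPM in OPM2 with dBRD9-A and 7147 CPM with DMSO. In H929 it averaged 4390 CPM with dBRD9-A and 9644 CPM with DMSO. Of the 9 markers, 3 fell in each line and none rose (IGJ and SLAMF7 in both, MZB1 in OPM2 and IRF4 in H929). Among all genes, 7.36% fell in OPM2 and 5.67% in H929. Without OPM2 dBRD9-A replicate 2, 4 fell and 1 rose in OPM2, against 15.6% and 16.1% of all genes. In that setting 5 fell and none rose in H929, against 16.5% and 19.2%. The 12 markers of T cells, B cells, myeloid, stromal, epithelial and endothelial cells summed to 2.48 to 3.43 CPM in OPM2 with dBRD9-A, 2.04 to 2.38 CPM in OPM2 with DMSO, 76.2 to 102.2 CPM in treated H929 and 54.5 to 68.4 CPM in H929 with DMSO, with COL1A2 at 0 throughout. Of the 12, 6 had enough counts to be tested. COL1A1 and KRT8 rose in both lines and CSF1R in H929, each at 10.3 CPM or less. Among all genes, 10.1% rose in OPM2 and 7.33% in H929. CD3E and PECAM1 reached higher levels, up to 39.3 and 44.9 CPM. With all libraries neither was called in either line at the threshold used here. Without OPM2 dBRD9-A replicate 2, 3 of the 6 rose in OPM2 and 4 of the 6 in H929, against 16.1% and 19.2% of all genes. The part of either marker list in the results below was not tested.

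Of the 9 members whose promoters were looked up in RefSeq (GRCh38.p14, 250 bases before to 50 after a start site, 14 promoters), MXD4, MNT and MLX each had 1 promoter with an exact CACGTG, which reads the same on both strands. Of all 35116 promoters in that table, 2548 hold it, which is 7.26%. These sequences are shown because they place the network's own recognition letters next to its members. MYC was not looked up. The capitals mark the E-box. The MXD4 promoter (chr4:2262060-2262359, minus strand) is printed whole, with its E-box 238 bases upstream of the start site. The MNT stretch (chr17:2401218-2401283, minus strand) and the MLX stretch (chr17:42567020-42567085, plus strand) run 30 bases to each side of E-boxes that begin 193 and 50 bases upstream.
MXD4: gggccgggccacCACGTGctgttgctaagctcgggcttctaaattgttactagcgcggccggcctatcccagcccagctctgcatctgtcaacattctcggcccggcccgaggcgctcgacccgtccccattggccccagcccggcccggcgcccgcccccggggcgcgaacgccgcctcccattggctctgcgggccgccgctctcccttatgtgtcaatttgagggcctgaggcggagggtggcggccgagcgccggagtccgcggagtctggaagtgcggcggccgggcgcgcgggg
MNT: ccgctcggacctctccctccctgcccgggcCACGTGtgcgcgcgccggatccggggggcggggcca
MLX: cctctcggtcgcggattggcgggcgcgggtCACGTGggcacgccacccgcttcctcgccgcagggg
A match is a description of these letters and not a measured binding site.

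With dBRD9-A, MYC fell in both lines and MXD4 rose in both, while MAX fell in H929 and MXD1 rose in OPM2. In OPM2, 3 of 10 members were called at a Benjamini-Hochberg adjusted p under 0.05, against 17.4% of all genes tested. In H929 it was again 3 of 10, against 13% of all genes tested. The dBRD9-A and DMSO libraries did not overlap in CPM for 7 of 10 members in OPM2 and 7 of 10 in H929, against 37.7% and 45.5% of all genes. In these bulk libraries, fewer cells that express a gene and less RNA per cell cannot be told apart.

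MYC, the activator at the centre of the network, had 115.3, 96.6 and 134.4 CPM in OPM2 with dBRD9-A, against 283.8, 295.7 and 294.2 CPM with DMSO. All 3 treated libraries lay below all 3 solvent libraries, and the solvent libraries differed little among themselves. The log2 fold change was -1.33 ± 0.26 (SE), with an edgeR adjusted p of 0.00544. In H929, MYC had 59.5, 46.2 and 87.9 CPM with dBRD9-A, against 138.7, 281.8 and 216.1 CPM with DMSO. Here too the groups did not overlap, although the solvent libraries spread widely (212.2 ± 71.6 CPM, SD, n = 3). The log2 fold change was -1.72 ± 0.26 (edgeR adjusted p = 0.00182), and MYC was called lower in every one of the 22 alternative settings tried in each line. The responses of the lines differed by -0.38 ± 0.36, H929 minus OPM2, which was not called (edgeR adjusted p = 0.775). PVT1, the noncoding neighbour of MYC, had log2 fold changes of -0.24 ± 0.18 in OPM2 and -0.18 ± 0.18 in H929, called in neither line (edgeR adjusted p = 0.384 and 0.566).

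MYCN, the paralog of MYC best known from neuroblastoma, was a low-level transcript of OPM2. It had 4.66, 3.03 and 7.11 CPM in OPM2 with dBRD9-A, against 7.62, 7.36 and 7.75 CPM with DMSO. The groups did not overlap, but the treated libraries spread, and the log2 fold change of -0.60 ± 0.24 was not called (edgeR adjusted p = 0.105). It was called without OPM2 dBRD9-A replicate 3, where the value was -0.96, and not without replicate 2, where it was -0.38 ± 0.17 (edgeR adjusted p = 0.103). With all libraries it was also called by limma-voom, at -0.50 (limma-voom adjusted p = 0.00396), and with a trend on GC content removed, at -0.57 (edgeR adjusted p = 0.0327). H929 held 7 to 12 MYCN counts per library with dBRD9-A and 11 to 15 with DMSO, and the log2 fold change of -0.11 ± 0.40 was not called (edgeR adjusted p = 0.909).

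MAX, the obligate partner of MYC and of the repressors, moved less than MYC. It had 52.8, 47.1 and 53.7 CPM in H929 with dBRD9-A, against 60.2, 72.5 and 67.9 CPM with DMSO. The groups did not overlap, and the log2 fold change was -0.38 ± 0.12 (edgeR adjusted p = 0.0483), just inside the threshold. The call held in 5 of the 22 alternatives, whose values all lay between -0.47 and -0.29. In OPM2, MAX had 74.0, 90.3 and 78.6 CPM with dBRD9-A, against 97.0, 92.4 and 105.3 CPM with DMSO. The change of -0.28 ± 0.12 was not called (edgeR adjusted p = 0.115), and without replicate 2 it was called at -0.38 ± 0.10 (edgeR adjusted p = 0.00811). The files list 8 other MAX entries, and their log2 fold changes ran from -0.37 to -0.34 in H929 and from -0.30 to -0.06 in OPM2. None of the 8 was called in either line, with edgeR adjusted p of 0.0599 to 0.248 in H929.

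**Figure D1:**
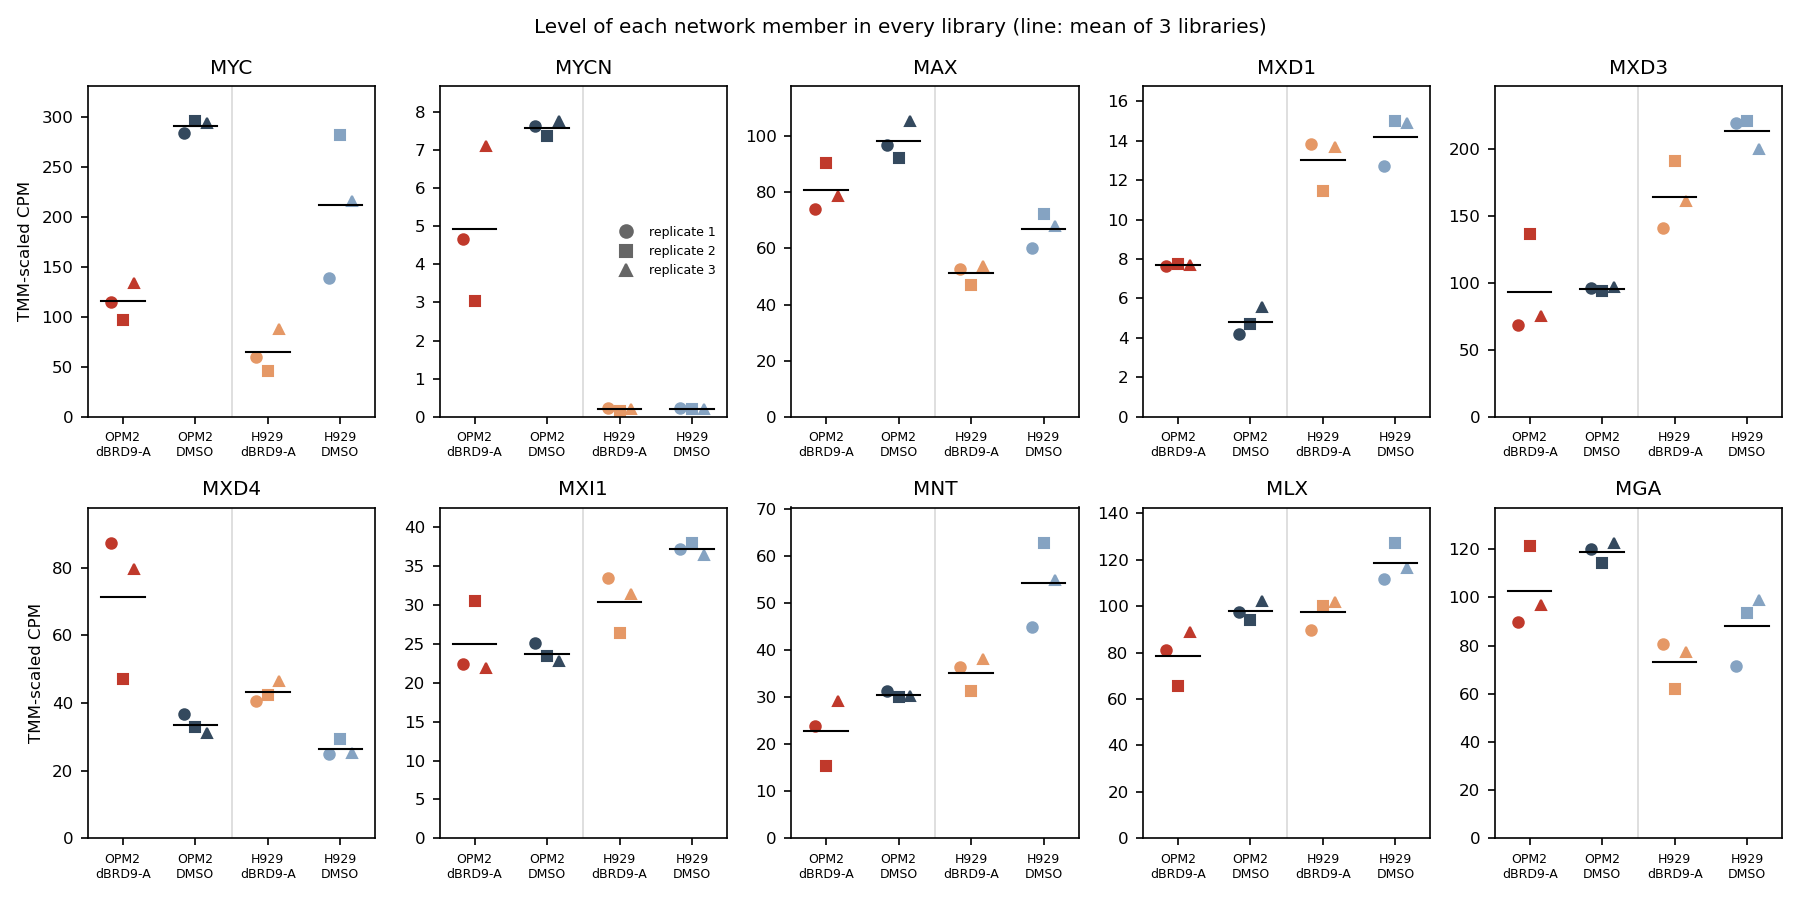
TMM-scaled CPM (linear axes from 0) of each member in the 12 libraries, grouped by line and agent, with replicates as circles, squares and triangles and each mean as a line. MYC lies lower and MXD4 higher with dBRD9-A in both lines without overlap, and OPM2 dBRD9-A replicate 2, the red square, is the highest of its group for MXD3 at 136.9 CPM and the lowest for MXD4 at 47.0 CPM.

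MXD4, an MXD repressor that pairs with MAX and MLX, was the member that rose in both lines. In OPM2 it had 87.3, 47.0 and 79.7 CPM with dBRD9-A, against 36.8, 33.0 and 31.1 CPM with DMSO. Replicate 2 was the lowest treated library and still lay above the solvent libraries. The log2 fold change was 1.09 ± 0.19 (edgeR adjusted p = 0.00312), and without replicate 2 it was 1.30 ± 0.10 (edgeR adjusted p = 4.32e-07). In H929, MXD4 had 40.7, 42.4 and 46.5 CPM with dBRD9-A, against 25.1, 29.5 and 25.1 CPM with DMSO. The treated libraries were close together and all above the solvent libraries, with a log2 fold change of 0.70 ± 0.19 (edgeR adjusted p = 0.0314). That call was lost without any 1 of the 6 H929 libraries and without OPM2 DMSO replicate 2, at adjusted p of 0.0520 to 0.106 and values of 0.67 to 0.81 (edgeR).

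MXD1, the founding MXD repressor, which many cells raise as they differentiate, had 7.66, 7.75 and 7.71 CPM in OPM2 with dBRD9-A, against 4.18, 4.70 and 5.58 CPM with DMSO. The treated libraries were nearly alike and above all solvent libraries, and MXD1 rose by 0.68 ± 0.14 on the log2 scale (edgeR adjusted p = 0.00866). With each line fitted alone the OPM2 calls of MXD1, at 0.66, and of MXD4, at 1.08, were lost (edgeR adjusted p = 0.0621 and 0.0558). In H929 it had 13.8, 11.5 and 13.7 CPM with dBRD9-A, against 12.7, 15.0 and 14.9 CPM with DMSO. These groups overlapped and the log2 fold change was -0.13 ± 0.14 (edgeR adjusted p = 0.620). The difference of the responses, H929 minus OPM2, was -0.80 ± 0.20 for MXD1 and was not called (edgeR adjusted p = 0.133). By the single edgeR fit of all libraries with no GC trend removed, 0.579% of all genes were called in that comparison, and none of the 10 members was. DESeq2 called MXD1 at -0.79 (DESeq2 adjusted p = 0.00941), and limma-voom called MXD1 at -0.83 and MXD4 at -0.54 (limma-voom adjusted p = 0.00565 and 0.0283). Without OPM2 dBRD9-A replicate 2, where 3.05% of genes were called, the difference was called for MXD1 at -0.75 ± 0.18 (edgeR adjusted p = 0.0368) and for MXD4 at -0.56 ± 0.14 (edgeR adjusted p = 0.0339). With all libraries the MXD4 difference was -0.39 ± 0.27 (edgeR adjusted p = 0.703).

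MXI1, also named MXD2, was not called in either line by a single edgeR fit of all libraries with no GC trend removed. It had 22.4, 30.5 and 21.9 CPM in OPM2 with dBRD9-A, against 25.1, 23.4 and 22.8 CPM with DMSO, groups that overlapped through replicate 2. In H929 it had 33.5, 26.3 and 31.4 CPM with dBRD9-A, against 37.2, 38.0 and 36.4 CPM with DMSO, without overlap. The log2 fold changes were 0.07 ± 0.14 in OPM2 and -0.29 ± 0.14 in H929 (edgeR adjusted p = 0.790 and 0.213). Without replicate 2 the OPM2 value turned to -0.11 ± 0.10, and the H929 value of -0.26 ± 0.09 was called (edgeR adjusted p = 0.422 and 0.0379). In H929 it was also called by limma-voom, at -0.24 (limma-voom adjusted p = 0.0289), and with the GC trend removed, at -0.37 (edgeR adjusted p = 0.0150).

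MXD3, the MXD repressor linked to cycling cells, could not be read on its own from these tables. The entry used for it spans 2662 bases and overlaps PRELID1, a mitochondrial lipid transfer gene on the opposite strand, in the GENCODE annotation. Its count was 0.788 to 0.896 of the PRELID1 count in every library. Over all 12 libraries PRELID1 was the gene with the pattern nearest to it, with a root-mean-square log2 difference of 0.05. Without OPM2 dBRD9-A replicate 2 the 3 nearest genes were EMC8, MRPL37 and MRPL11, at 0.04 each, and PRELID1 was not among them. The sources used here do not state how the counting treated strand, and reads of MXD3 and PRELID1 cannot be told apart. With this entry MXD3 had 68.8, 136.9 and 75.0 CPM in OPM2 with dBRD9-A, against 96.0, 94.1 and 96.7 CPM with DMSO. Replicate 2 lay above all other OPM2 libraries and its mates below them, and the log2 fold change was -0.03 ± 0.22 (edgeR adjusted p = 0.940), against -0.42 ± 0.11 without replicate 2 (edgeR adjusted p = 0.00758). In H929 it had 141.2, 191.2 and 161.0 CPM with dBRD9-A, against 219.3, 220.7 and 200.1 CPM with DMSO, a change of -0.38 ± 0.22 (edgeR adjusted p = 0.293).

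The shorter MXD3 entry, of 1465 bases, held 1.54% to 17.0% of the counts of the longer one. In OPM2 with dBRD9-A it had 790, 50 and 761 counts, against 630, 548 and 740 with DMSO. In H929 it had 919, 1178 and 1151 counts with dBRD9-A, against 1325, 803 and 862 with DMSO. This entry has 67.2% GC. The 50 counts of OPM2 dBRD9-A replicate 2 are far below those of any other library, while the longer entry has 3252 there. By this entry, taken up after the data were seen, the log2 fold change was -0.08 ± 0.44 in OPM2 and 0.38 ± 0.43 in H929 (edgeR adjusted p = 0.927 and 0.631), so the sign in H929 turned with the entry.

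**Figure D2:**
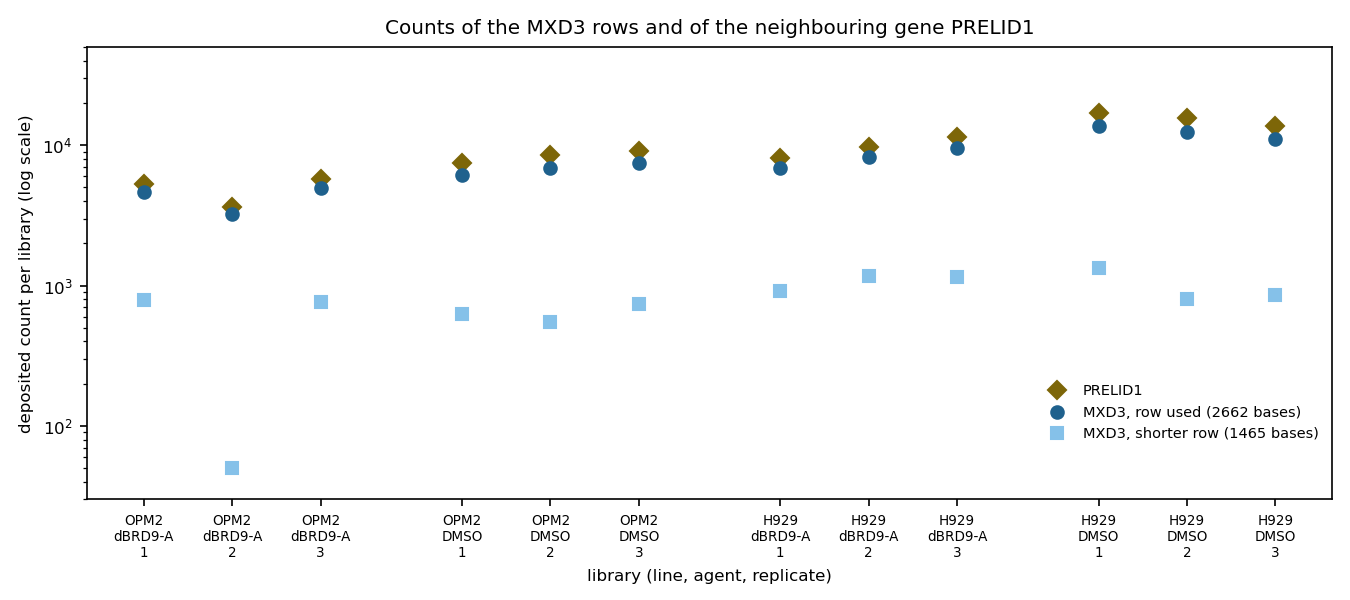
Deposited counts (log axis) of PRELID1, of the MXD3 entry used and of the shorter MXD3 entry in each library, by line, agent and replicate. The longer entry tracks PRELID1 at 0.788 to 0.896 of its count, and the shorter entry drops to 50 counts in OPM2 dBRD9-A replicate 2.

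MNT is the widely expressed MAX-pairing repressor, and MGA the giant scaffold of the PRC1.6 Polycomb complex. Neither was called in either line by a single edgeR fit of all libraries with no GC trend removed. Other settings called MNT in each line and MGA in OPM2, while none of the 22 alternatives called MGA in H929. MNT had 36.4, 31.4 and 38.1 CPM in H929 with dBRD9-A, against 45.1, 62.9 and 55.1 CPM with DMSO. The groups did not overlap and the log2 fold change of -0.62 ± 0.20 missed the threshold (edgeR adjusted p = 0.0575), while without OPM2 dBRD9-A replicate 2 it was called at -0.59 ± 0.12 (edgeR adjusted p = 0.00116). With all libraries MNT in H929 was also called by DESeq2, at -0.58 (DESeq2 adjusted p = 0.0305), by limma-voom, with each line fitted alone and with a trend on GC content removed. In OPM2, MNT had 23.8, 15.5 and 29.3 CPM with dBRD9-A, against 31.4, 30.01 and 30.3 CPM with DMSO, a change of -0.41 ± 0.20 (edgeR adjusted p = 0.168). Without OPM2 dBRD9-A replicate 3 it was called at -0.63 (edgeR adjusted p = 0.0372). MGA had 90.0, 121.3 and 96.8 CPM in OPM2 with dBRD9-A, against 120.1, 114.5 and 122.6 CPM with DMSO. Replicate 2 alone overlapped the solvent libraries, and the change of -0.21 ± 0.15 (edgeR adjusted p = 0.357) was -0.36 ± 0.13 without it (edgeR adjusted p = 0.0454). With all libraries MGA in OPM2 was called by limma-voom, at -0.36 (limma-voom adjusted p = 0.00647), and with the GC trend removed, at -0.38 (edgeR adjusted p = 0.0295). In H929, MGA had 80.6, 61.9 and 77.5 CPM with dBRD9-A, against 71.7, 93.7 and 99.0 CPM with DMSO, with overlap and a change of -0.26 ± 0.15 (edgeR adjusted p = 0.302).

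MLX, the parallel hub, had 80.9, 65.6 and 89.1 CPM in OPM2 with dBRD9-A, against 97.7, 93.9 and 102.1 CPM with DMSO. In H929 it had 89.9, 100.2 and 101.9 CPM with dBRD9-A, against 111.6, 127.3 and 116.5 CPM with DMSO. The groups overlapped in neither line, with changes of -0.32 ± 0.12 and -0.28 ± 0.12 that were not called (edgeR adjusted p = 0.0902 in OPM2 and 0.150 in H929). Without OPM2 dBRD9-A replicate 3 the OPM2 change was called at -0.42 (edgeR adjusted p = 0.0352). Without OPM2 dBRD9-A replicate 2 the H929 change was called at -0.25 ± 0.08 (edgeR adjusted p = 0.0228). An exon of MLX overlaps PSMC3IP on the opposite strand, and PSMC3IP itself changed by -0.06 ± 0.15 in OPM2 and -0.50 ± 0.15 in H929 (edgeR adjusted p = 0.807 and 0.0473).

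The place of OPM2 dBRD9-A replicate 2 within its group went with the GC content of the entry for 9 of 10 members. It was the lowest of the 3 treated libraries for MXD4 (64.0% GC), MNT (61.4%), MYCN (56.9%), MYC (53.9%) and MLX (51.8%), and the highest for MAX (49.5%), MXI1 (43.7%), MGA (43.1%) and MXD1 (42.7%). MXD3, at 55.8%, was the exception, with replicate 2 the highest. Without it 6 of 10 members were called in OPM2 and 7 of 10 in H929, against 31.7% of all genes in OPM2 (16.1% higher, 15.6% lower) and 35.7% in H929 (19.2% higher, 16.5% lower). The added calls were MAX, MXD3 and MGA lower in OPM2 and MXD3, MXI1, MNT and MLX lower in H929. With all libraries and a smooth trend on GC content removed from each, 7 of 10 members were called in OPM2 (all but MXD3, MXI1 and MNT). In H929 it was 6 of 10 (all but MYCN, MXD1, MXD3 and MGA). Of all 16409 genes tested, 4425 were called in OPM2 and 3916 in H929 in that setting. Limma-voom, which gives each library a weight, called 9 of 10 in OPM2 (all but MXI1) and 7 of 10 in H929 (all but MYCN, MXD1 and MGA). It called 7142 of all 16409 genes in OPM2 and 5910 in H929. GC content was taken from GENCODE transcripts.

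**Figure D3:**
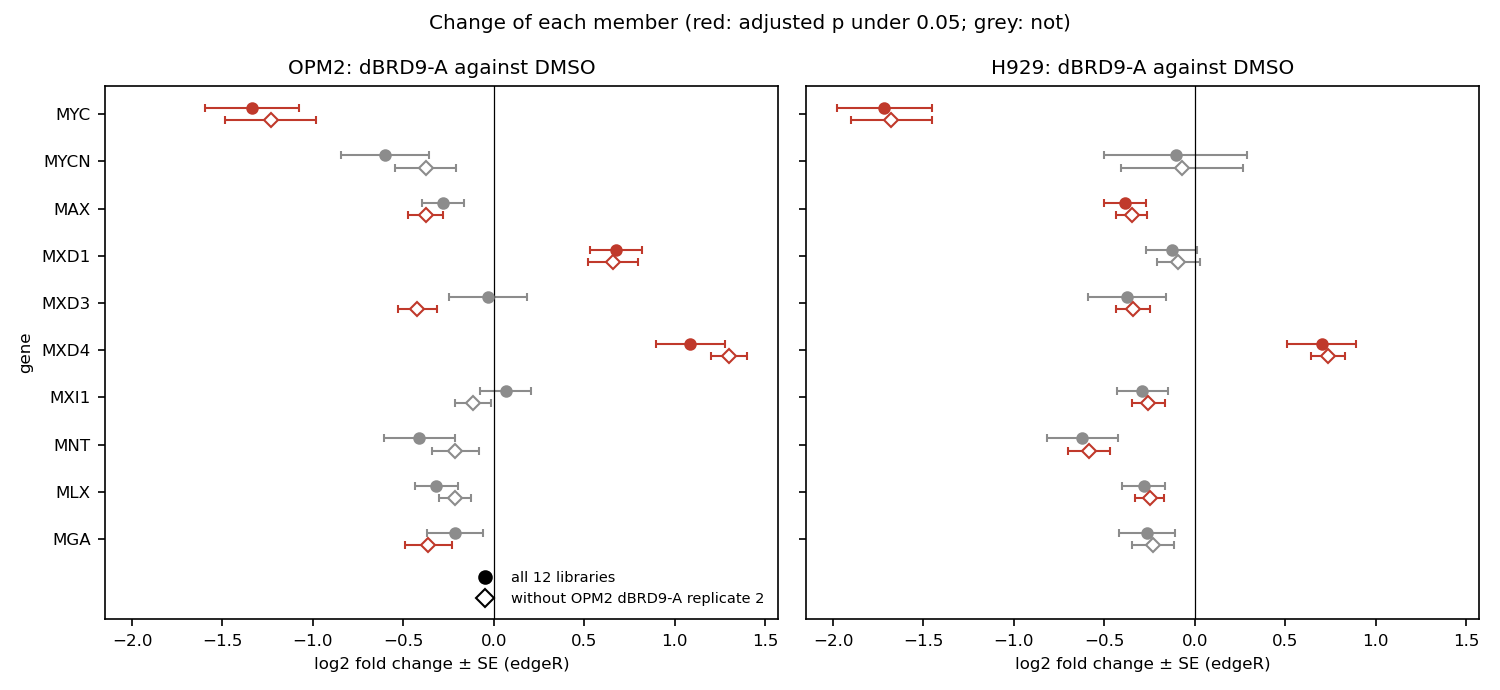
Log2 fold change ± SE of each member, dBRD9-A against DMSO, in OPM2 (left) and H929 (right), from all 12 libraries (filled circles) and without OPM2 dBRD9-A replicate 2 (open diamonds), red where called. MYC and MXD4 stand out on opposite sides of 0 in both lines, and MXD1 is called in OPM2, at 0.68, and not in H929, at -0.13.

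Levels were compared between genes per kb of the entry, as CPM per kb. In OPM2 with dBRD9-A, MYC had 48.8 ± 7.99 CPM per kb (SD, n = 3) and overlapped MAX at 37.8 ± 3.92, while MXD4 lay below MLX at 18.9 ± 5.68. In OPM2 with DMSO, MYC had 123.1 ± 2.72 CPM per kb, above MAX at 45.9 ± 3.05, MLX at 38.2 ± 1.59 and MXD3 at 35.9 ± 0.50, and MXD4 was level with MGA at 8.91 ± 0.77 and 9.89 ± 0.35. In H929 with dBRD9-A, the order was MXD3 at 61.8 ± 9.46, MLX at 38.0 ± 2.53, MYC at 27.3 ± 9.001, MAX at 23.9 ± 1.67 and MXD4 at 11.5 ± 0.80 CPM per kb, where MYC did not separate from MLX or MAX. In H929 with DMSO, MYC at 89.7 ± 30.3 and MXD3 at 80.1 ± 4.32 CPM per kb overlapped and lay above MLX at 46.2 ± 3.13 and MAX at 31.2 ± 2.91. MXD3 levels include any PRELID1 reads. The shorter MXD3 entry averaged 5.75 CPM per kb with dBRD9-A and 6.15 with DMSO in OPM2. In H929 it averaged 14.9 with dBRD9-A and 11.7 with DMSO. By that entry MXD3 lay below MYC, MLX and MAX in every group, so its rank turned with the entry. MXI1, MNT and MGA had 4.72 to 11.2 CPM per kb as group means, and MXD1 and MYCN 2.53 or less.

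The share of MYC in the summed per-kb level of the 8 partners of MAX (MYC, MYCN, MXD1, MXD3, MXD4, MXI1, MNT and MGA) was 40.8%, 31.6% and 43.6% in OPM2 with dBRD9-A, against 62.2%, 64.2% and 63.6% with DMSO. In H929 it was 21.8%, 15.8% and 27.4% with dBRD9-A, against 33.3%, 48.8% and 44.3% with DMSO. With the longer MXD3 entry, MYC thus made up the larger part of this pool only in OPM2 with DMSO. Its part was smaller in every treated library of each line than in any solvent library of that line. MXD4 had 19.4%, 9.64% and 16.2% in OPM2 with dBRD9-A, against 5.06%, 4.49% and 4.21% with DMSO. For H929 its share was 9.34%, 9.08% and 9.08% with dBRD9-A, against 3.78%, 3.20% and 3.23% with DMSO. The log2 ratio of MYC to MXD4 per kb was 1.40 ± 0.32 with dBRD9-A and 3.79 ± 0.15 with DMSO in OPM2, and 1.20 ± 0.40 with dBRD9-A and 3.62 ± 0.42 with DMSO in H929 (SD, n = 3 each). With the shorter MXD3 entry the MYC share was 50.4 ± 2.12% with dBRD9-A and 74.8 ± 1.29% with DMSO in OPM2. In H929 it was 34.3 ± 7.20% with dBRD9-A and 62.8 ± 7.87% with DMSO. By that entry MYC was the larger part in H929 with DMSO too, at 54.2% to 69.6%. In OPM2 with dBRD9-A it then had 48.0% to 51.7%. Transcript shares say nothing of protein levels, which were not measured.

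**Figure D4:**
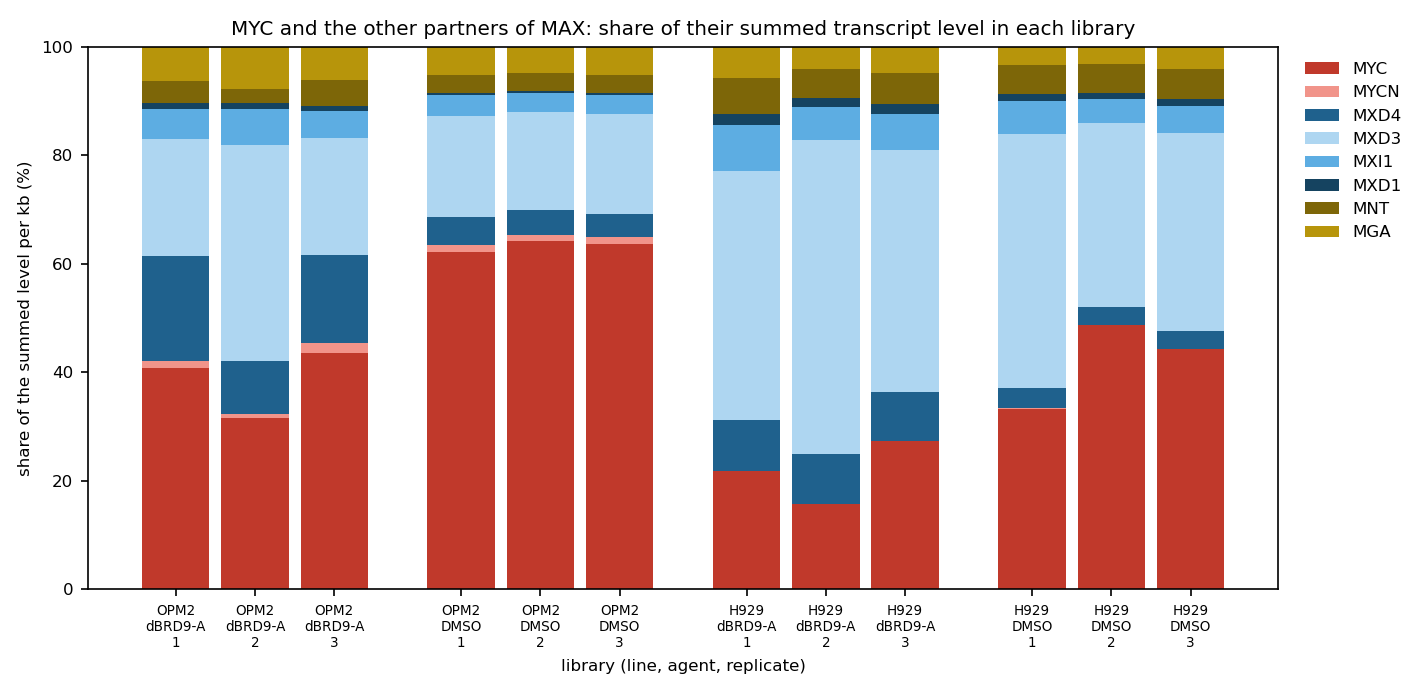
Share (%) of each of the 8 MAX partners in their summed CPM per kb, as stacked bars for the 12 libraries ordered by line, agent and replicate. MXD3 is the longer entry, which overlaps PRELID1. The MYC share is 31.6% to 43.6% in OPM2 with dBRD9-A and 62.2% to 64.2% with DMSO. For H929 it is 15.8% to 27.4% with dBRD9-A and 33.3% to 48.8% with DMSO.

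Levels without the compound were also compared between the lines. MYCN was 0.21 ± 0.03 CPM in H929, against 7.58 ± 0.20 CPM in OPM2 (SD, n = 3 each), a description with no test, because MYCN passed the low-count filter only through OPM2. Of the 9 other members, 6 were called between H929 and OPM2 in DMSO, against 60.2% of all genes tested, so the count is near the background. The repressors MXD1, MXI1 and MNT were higher in H929 by 1.56 ± 0.14, 0.65 ± 0.14 and 0.83 ± 0.20, and MAX and MGA lower at -0.56 ± 0.12 and -0.43 ± 0.15. With the trend on GC content removed the MNT value was 0.14 and no longer called (edgeR adjusted p = 0.406). MGA lost its call without OPM2 DMSO replicate 1, without OPM2 DMSO replicate 3 and without H929 DMSO replicate 1, at -0.43, -0.41 and -0.34 (edgeR adjusted p = 0.0659, 0.0755 and 0.0801). MXD3 was higher by 1.16 ± 0.22 with the entry that overlaps PRELID1, which itself was higher by 1.18 ± 0.21, and by 0.89 ± 0.44 with the shorter entry, which was not called (edgeR adjusted p = 0.0950). The longer entry had 0.62 with the GC trend removed, which was not called either (edgeR adjusted p = 0.0836). MYC, at -0.46 ± 0.26, MXD4, at -0.34 ± 0.19, and MLX, at 0.28 ± 0.12, were not called (edgeR adjusted p = 0.142, 0.142 and 0.0663), although their libraries did not overlap. These calls turned on the setting. With the GC trend removed MYC was called at -0.91 and MXD4 at -1.05 (edgeR adjusted p = 0.00593 and 1.27e-05). MYC was also called without H929 DMSO replicate 2, at -0.74 (edgeR adjusted p = 0.0384), and MLX by DESeq2, at 0.29 (DESeq2 adjusted p = 0.0260), and with RLE factors. Limma-voom called MYC, MXD4 and MLX. The sign of MLX turned with the GC trend removed, at -0.08 (edgeR adjusted p = 0.455). The libraries of the lines did not overlap for any of the 9, against 78.7% of all genes, and without OPM2 dBRD9-A replicate 2 all 9 were called, against 74.6%. Removing the trend with GC content moved the median log2 fold change of all genes in this comparison by -0.28, and library size without scaling factors moved it by -0.12.

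BRD9 itself, the target of the degrader, had log2 fold changes of -0.23 ± 0.13 in OPM2 (edgeR adjusted p = 0.241) and -0.46 ± 0.13 in H929 (edgeR adjusted p = 0.0391). The compound acts on the protein, which was not measured, so the transcript does not check the labels.

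Most genes on a list that MYC is known to activate fell with dBRD9-A. The list holds 64 of them, for ribosome assembly, nucleotide synthesis and the cell cycle, and was written with earlier results of these data known. In OPM2, 45 of 64 fell and none rose, against 7.36% lower and 10.1% higher among all genes, with a median log2 fold change of -0.77 against 0.03 over all genes. In H929, 45 fell and none rose, against 5.67% and 7.33% of all genes, with a median of -0.69 against -0.00. SLC19A1, the reduced folate carrier, fell to 24.1, 8.71 and 33.1 CPM in OPM2 with dBRD9-A, against 53.5, 58.2 and 52.8 CPM with DMSO (-1.31 ± 0.34, edgeR adjusted p = 0.0227). DUSP2, a MAP kinase phosphatase, fell by 1.26 ± 0.33 in OPM2 and by 1.33 ± 0.34 in H929 on the log2 scale (edgeR adjusted p = 0.0224 and 0.0251). DCTPP1, which clears modified nucleotides, had 25.0, 35.3 and 34.7 CPM in H929 with dBRD9-A, against 60.9, 77.2 and 57.0 CPM with DMSO (-1.04 ± 0.16, edgeR adjusted p = 0.00173).

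Of 14 genes that MYC is known to repress, 13 could be tested. In OPM2, 8 rose and none fell, against 10.1% of all genes called higher, with a median of 0.68. In H929, 2 rose and none fell, against 7.33%, with a median of 0.33. CCNG2, an atypical cyclin of resting cells, rose to 23.9, 25.2 and 18.3 CPM in OPM2 with dBRD9-A, against 8.03, 6.08 and 7.72 CPM with DMSO (1.63 ± 0.23, edgeR adjusted p = 0.000933). In H929 it rose to 21.1, 17.7 and 14.8 CPM, against 9.81, 5.13 and 7.95 CPM with DMSO (1.23 ± 0.23, edgeR adjusted p = 0.00542). The cyclin-dependent kinase inhibitors CDKN1C, at 4.14 CPM or less, and CDKN2B rose by 1.20 ± 0.29 and 0.90 ± 0.20 in OPM2 (edgeR adjusted p = 0.0147 and 0.0109). The stress gene GADD45A rose there by 1.16 ± 0.23 (edgeR adjusted p = 0.00607). In H929, CDKN1C, CDKN2B and GADD45A had 0.77 ± 0.33, 0.56 ± 0.21 and 0.14 ± 0.23, none called with all libraries. The inhibitors CDKN1A and CDKN1B, on the same list, were called in neither line with all libraries. They had 0.68 ± 0.29 and -0.18 ± 0.14 in OPM2, and 0.12 ± 0.29 and -0.04 ± 0.14 in H929. The chaperone gene CLU rose in both lines, by 0.63 ± 0.16 in OPM2 and 0.65 ± 0.16 in H929 (edgeR adjusted p = 0.0212 and 0.0207). When OPM2 dBRD9-A replicate 2 was left out, 9 of 13 rose in OPM2 and 8 of 13 in H929, against 16.1% and 19.2% of all genes.

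**Figure D5:**
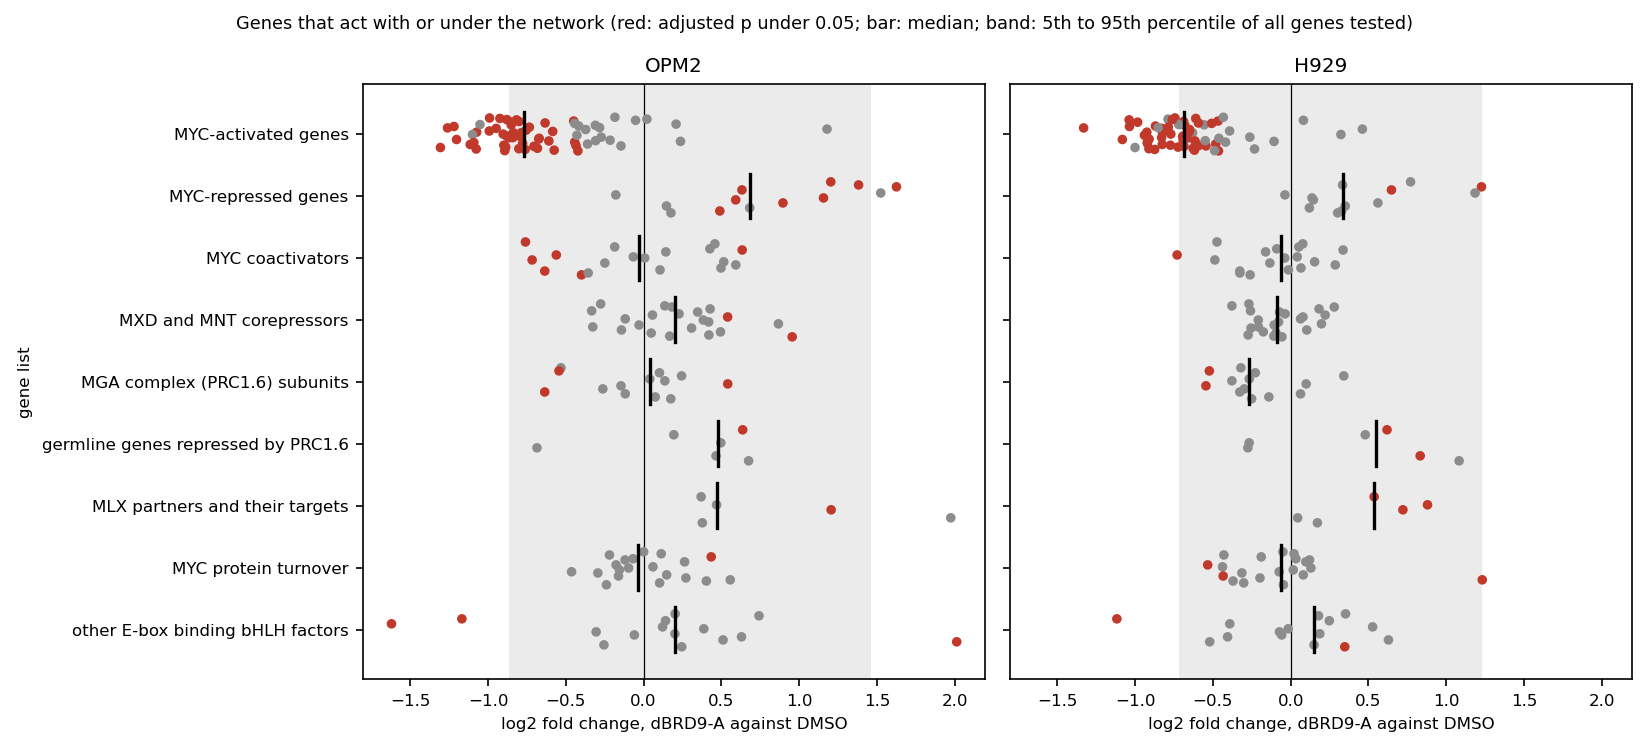
Log2 fold change, dBRD9-A against DMSO, of the tested genes of 9 lists in OPM2 (left) and H929 (right), 1 point per gene, red where called, with the list median as a black bar and the 5th to 95th percentile of all genes tested as a grey band. Of the 64 MYC-activated genes, 60 lie below 0 in OPM2 and 61 in H929, with medians of -0.77 and -0.69, and of the 13 MYC-repressed genes 12 lie above 0 in each line, with medians of 0.68 and 0.33.

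Of 18 coactivators of MYC, 5 fell and 1 rose in OPM2, against 7.36% lower and 10.1% higher among all genes. In H929, 1 fell and none rose, which is no more than the 5.67% lower and 7.33% higher of all genes. The list medians were -0.03 and -0.06. RUVBL1, an ATPase of the TIP60 and INO80 complexes, fell in both lines, by 0.56 ± 0.11 in OPM2 and 0.73 ± 0.11 in H929 (edgeR adjusted p = 0.00576 and 0.00177). Its partner RUVBL2, the acetyltransferase KAT2A, the scaffold WDR5 and ACTL6A fell in OPM2, by 0.76 ± 0.20, 0.72 ± 0.18, 0.64 ± 0.14 and 0.40 ± 0.09 (edgeR adjusted p = 0.0210, 0.0162, 0.0101 and 0.0128). In H929 the same genes had values of -0.47 ± 0.20, -0.49 ± 0.18, -0.33 ± 0.14 and -0.26 ± 0.09, none of them called. TRRAP, the scaffold through which MYC recruits acetyltransferases, rose in OPM2 to 211.9, 176.9 and 198.6 CPM, against 145.8, 110.9 and 121.9 CPM with DMSO (0.63 ± 0.13, edgeR adjusted p = 0.00812), with 0.34 ± 0.13 in H929 (edgeR adjusted p = 0.121). The H929 count was 6 lower and 2 higher without OPM2 dBRD9-A replicate 2, against 16.5% and 19.2% of all genes.

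Of 22 corepressor genes of the MXD proteins and MNT, in the SIN3 and NCOR complexes, 2 rose and none fell in OPM2, a share near the 10.1% of all genes called higher, and none was called in H929. The SIN3 subunits that rose were ARID4A, by 0.96 ± 0.29, and PHF12, by 0.54 ± 0.14 (edgeR adjusted p = 0.0418 and 0.0205). ARID4A had 41.9, 103.0 and 41.9 CPM in OPM2 with dBRD9-A, against 31.7, 29.4 and 34.9 CPM with DMSO. Replicate 2 lay far above its mates, which were above the solvent libraries too. The list median was 0.21 in OPM2 and -0.02 without replicate 2, where 3 rose and 2 fell, against 16.1% and 15.6% of all genes. In H929 the median was -0.09, and without that library 2 rose and 4 fell, against 19.2% and 16.5%.

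Of 13 subunits of the MGA complex PRC1.6, 1 rose and 2 fell in OPM2, against 10.1% higher and 7.36% lower among all genes, and 2 fell in H929, against 5.67%. The medians were 0.04 and -0.27. TFDP1, the partner of E2F6, fell in both lines, to 228.4, 154.5 and 237.8 CPM in OPM2 with dBRD9-A, against 295.7, 296.3 and 313.3 CPM with DMSO, and by 0.52 ± 0.14 on the log2 scale in H929 (edgeR adjusted p = 0.0220 in OPM2 and 0.0316 in H929). WDR5, counted above as a coactivator, was the other subunit that fell in OPM2, and RYBP rose there by 0.54 ± 0.15 (edgeR adjusted p = 0.0300). CBX3, a heterochromatin protein that is also on the list of MYC-activated genes, fell by 0.54 ± 0.12 in H929 (edgeR adjusted p = 0.0123). With OPM2 dBRD9-A replicate 2 left out, 6 of 13 subunits fell in OPM2 and 7 in H929, against 15.6% and 16.5% of all genes. Of 13 germline genes listed as repressed by PRC1.6, 6 had enough counts to be tested. Of these, 1 rose in OPM2 and 2 in H929, against 10.1% and 7.33% of all genes. Without OPM2 dBRD9-A replicate 2, 7 could be tested, and 2 rose in OPM2 and 3 in H929, against 16.1% and 19.2%. The OPM2 median was 0.48 with all libraries and 0.08 without that library. TDRKH rose in both lines, by 0.64 ± 0.11 in OPM2 and 0.62 ± 0.11 in H929, and STAG3 rose in H929 by 0.83 ± 0.21 (edgeR adjusted p = 0.00236, 0.00341 and 0.0217). TDRKH, a tudor-domain protein of the piRNA pathway, had 103.7, 97.7 and 93.3 CPM in OPM2 with dBRD9-A, against 62.2, 59.2 and 68.1 CPM with DMSO. In both lines its treated libraries lay above all solvent libraries. It was not silent with DMSO, where H929 had 45.7 to 52.0 CPM.

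On the MLX side, 1 of 5 genes rose in OPM2 and 3 of 5 in H929, and none fell, against 10.1% and 7.33% of all genes called higher, with medians of 0.47 and 0.54. In OPM2, 3 of 5 rose when replicate 2 was left out, against 16.1%. ARRDC4, an arrestin-like target of MLX and MLXIP, rose to 6.02, 7.79 and 5.93 CPM in OPM2 with dBRD9-A, against 2.67, 3.001 and 2.83 CPM with DMSO (1.21 ± 0.19, edgeR adjusted p = 0.00163), and by 0.72 ± 0.18 in H929 (edgeR adjusted p = 0.0229). TXNIP, the best known target of that pair and a brake on glucose uptake, rose in H929 to 433.0, 292.1 and 320.5 CPM, against 182.3, 179.9 and 206.0 CPM with DMSO (0.88 ± 0.18, edgeR adjusted p = 0.00827). In OPM2 its change of 0.47 ± 0.18 was not called (edgeR adjusted p = 0.0894). MLXIP itself rose in H929 by 0.54 ± 0.13 (edgeR adjusted p = 0.0184) and had 0.37 ± 0.13 in OPM2 (edgeR adjusted p = 0.0673). MLXIPL was at or near 0 counts in OPM2 and at 0.22 CPM or less in H929.

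The genes whose pattern was most like that of MYC were found as the smallest root-mean-square difference of line-centred log2 CPM over the 12 libraries, among 9346 genes with a mean of at least 3 log2 CPM. They were PLD6 (0.16), SLC7A2 (0.23), KCNA3 (0.26), RRP12 (0.29), GALNT18 (0.30) and SLC29A1 (0.31). PLD6, a mitochondrial phospholipase, had 14.0, 11.4 and 18.6 CPM in OPM2 with dBRD9-A, against 42.2, 44.1 and 40.8 CPM with DMSO. In H929 it had 16.0, 14.3 and 28.2 CPM with dBRD9-A, against 43.1, 74.4 and 48.8 CPM with DMSO. Its treated and solvent libraries do not overlap in either line. PLD6 and SLC7A2, a cationic amino acid transporter, stayed among the 6 nearest without OPM2 dBRD9-A replicate 2. The gene nearest to MXD4 was ZNF436, a zinc finger gene, at 0.13 with all libraries and 0.12 without replicate 2. The gene nearest to MGA was PRDM1, the plasma cell regulator BLIMP1, at 0.05 in both sets.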

How the data were processed

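RNA was measured in 12 libraries, 3 per group, made with a stranded poly(A)-selecting kit per the labels. Per the submitters' processing notes, hg19 and GRCh37 were among the builds, and STAR and featureCounts among the tools. The authors deposited whole-number counts for 51780 transcript entries per library, not normalised, in which a read can count for each transcript it overlaps. The deposited FPKM values served to recover the length of each entry, and the deposited TPM values gave an alternative for shares. The sources used here do not state whether counting used strand.

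Each symbol was taken as its entry with the highest mean count. Counts were filtered with filterByExpr by group, scaled by TMM and tested with edgeR 4.0.16 (R 4.3.3, limma 3.58.1), by a quasi-likelihood test with 1 mean per group in a single fit with 8 residual degrees of freedom. The Benjamini-Hochberg adjustment ran over all genes tested, with a threshold of 0.05. CPM values are TMM-scaled, and log2 CPM uses a prior count of 0.25. The edgeR comparison in OPM2 was tested on simulated counts, which held no library with a GC trend like that of OPM2 dBRD9-A replicate 2. The alternative methods were not tested in this way.

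The members and all gene lists were chosen with earlier results of these data known. The text names all members and BRD9. From each list it draws on up to 3 called genes per direction and line with the largest change, non-overlapping libraries and a mean of at least 1 log2 CPM, or any gene of a list of 20 or fewer. The other named genes are those nearest in pattern to a member, and neighbours that overlap a member or, as PVT1, lie beside it. The neighbours were chosen after their values were seen.

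Alternatives were RLE factors, unscaled library size, DESeq2 1.42.0, limma-voom with library weights, separate fits per line, no filter, a filter of 1 CPM in 3 libraries, a replicate block, leaving out each library, removal of a GC trend (GC content was found for 98.1% of genes) and the sum over transcripts. The shorter MXD3 entry was added after the data were seen.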

Additional observations from a re-analysis of the deposited data

How the results depend on the processing

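MYC was called lower in both lines in all 22 alternatives, with log2 fold changes of -1.46 to -1.23 in OPM2 and -1.97 to -1.43 in H929. MXD4 was called higher in OPM2 in 21 of 22 (0.91 to 1.37), with each line fitted alone the exception (1.08, adjusted p = 0.0558 by edgeR), and MXD1 in 21 of 22 (0.52 to 0.79). MXD4 in H929 was called in 14 of 22, with 0.67 to 0.81 over the libraries left out and 0.70 with the replicate block (edgeR adjusted p = 0.0557).

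In OPM2, 2859 of 16409 genes were called. The count was 7142 with limma-voom, 871 with each line alone, 1727 with the replicate block, 4425 with the GC trend removed and 1383 to 5277 over the libraries left out. Members called in OPM2 numbered 9 with limma-voom, 1 with each line alone, 7 with the GC trend removed and 3 to 6 over the libraries left out. In H929, 2133 of 16409 genes were called. Limma-voom called 5910, the fit with each line alone 4970, the block 1112 and the fit with the GC trend removed 3916. The count was 812 to 5946 over the libraries left out. Members called in H929 numbered 7 with limma-voom, 6 with each line alone, 1 with the block, 6 with the GC trend removed and 1 to 7 over the libraries left out. For the difference of the responses 95 genes were called, against 372 with DESeq2, 877 with limma-voom, 26 with the block, 214 with the GC trend removed and 35 to 508 over the libraries left out. Same-numbered libraries correlated at -0.17 to 0.14 in their deviations. With 3 libraries per group and the large deviations of OPM2 dBRD9-A replicate 2, this cannot tell whether the numbers pair them. A block could not be fitted for the lines in DMSO. Without OPM2 dBRD9-A replicate 2, 60 of 64 MYC-activated genes fell in OPM2 and 1 rose, against 15.6% and 16.1% of all genes. In H929, 58 of them fell and none rose, against 16.5% and 19.2%. In the same setting 8 of 13 MYC-repressed genes rose in H929.

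Uncalled values changed sign as follows. MXD3 in OPM2 had 0.00099 with RLE factors, 0.0019 with DESeq2, 0.013 with the 1 CPM filter, 0.14 with the GC trend removed and -0.42 to 0.14 over the libraries left out. MXI1 in OPM2 had -0.11 with limma-voom, -0.10 with the GC trend removed and -0.11 to 0.14 over the libraries left out. MYCN in H929 ranged over -0.17 to 0.040. MXD3 by the shorter entry had 0.38 in H929. For the difference of the responses, limma-voom gave 0.0062 for MAX, 0.020 for MXD3, -0.044 for MLX and 0.10 for MGA. The GC correction gave -0.021 for MLX and 0.048 for MGA, unscaled library size 0.013 for MGA, and the shorter entry 0.46 for MXD3. Over the libraries left out these differences were -0.16 to 0.027 for MAX, -0.52 to 0.080 for MXD3, -0.37 to 0.0092 for MNT, -0.034 to 0.14 for MLX and -0.13 to 0.13 for MGA. MLX between the lines in DMSO was -0.079 with the GC trend removed. With the shorter MXD3 entry the MYC share was 50.4% with dBRD9-A and 74.8% with DMSO in OPM2, and 34.3% with dBRD9-A and 62.8% with DMSO in H929. The cause of these shifts was not tested. MYCN in H929 rests on 15 counts or fewer per library.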

Other observations

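Other factors of the basic helix-loop-helix family that read E-boxes moved in both directions. TFAP4, a MYC target that binds a related E-box, fell in both lines. It had 14.5, 7.999 and 19.0 CPM in OPM2 with dBRD9-A, against 32.6, 29.7 and 31.7 CPM with DMSO, and 12.9, 13.1 and 17.4 CPM in H929 with dBRD9-A, against 27.1, 37.2 and 30.01 CPM with DMSO. The treated libraries lay below all solvent libraries in each line, with log2 fold changes of -1.17 ± 0.25 and -1.12 ± 0.25 (edgeR adjusted p = 0.00887 in OPM2 and 0.0130 in H929). Of the 15 factors listed, MYCL also fell and BHLHE41 rose in OPM2, and ARNT rose in H929, by 0.35 ± 0.10 (edgeR adjusted p = 0.0381). That is 1 higher and 2 lower in OPM2, against 10.1% and 7.36% of all genes, and 1 higher and 1 lower in H929, against 7.33% and 5.67%, shares near the background. The list median was 0.20 in OPM2 and 0.15 in H929. MYCL, the third MYC paralog, had 0.64 CPM or less in every OPM2 library.

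Of 20 genes that act on the stability of the MYC protein, 1 rose in OPM2, against 10.1% of all genes, and 1 rose and 2 fell in H929, against 7.33% and 5.67%. These shares are near or below the background, and the medians were -0.03 and -0.06. PPP2R5A, a subunit of the phosphatase that lowers MYC stability, had 91.8, 91.6 and 91.5 CPM in OPM2 with dBRD9-A, against 66.03, 67.7 and 69.5 CPM with DMSO (0.43 ± 0.09, edgeR adjusted p = 0.00746). Its treated libraries were nearly alike and above the solvent libraries, while in H929 the change was -0.19 ± 0.09 (edgeR adjusted p = 0.202). FBXO32, a ubiquitin ligase subunit, rose in H929 to 9.01, 6.89 and 6.67 CPM, against 3.39, 2.74 and 3.47 CPM with DMSO (1.23 ± 0.22, edgeR adjusted p = 0.00465). The genes that fell in H929 were SET, by 0.53 ± 0.16, and USP37, a deubiquitinase, by 0.43 ± 0.11 (edgeR adjusted p = 0.0453 and 0.0269). With OPM2 dBRD9-A replicate 2 left out, 2 genes rose and 2 fell in OPM2, against 16.1% and 15.6% of all genes, and 1 rose and 7 fell in H929, against 19.2% and 16.5%.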
